A study of Homo sapiens with 14 samples.

Results

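The 8 receptors described here belong to the tumour necrosis factor (TNF) receptor superfamily and were followed in MiaPaCa2, a human pancreatic cancer cell line, through starvation and through silencing of NUPR1, RELA and RELB. They are 8 of the 18377 genes that the arrays named, taken as the transcript clusters (sets of probes for 1 gene) whose annotated symbol was a member. TNFRSF10A, TNFRSF10B and TNFRSF10D are receptors for the death ligand TRAIL, and FAS, TNFRSF1A and TNFRSF21 are further receptors with an intracellular death domain. TNFRSF12A is the receptor of the cytokine TWEAK and TNFRSF9 is the costimulatory receptor 4-1BB. Each of the 8 genes had 1 cluster, and 8 of 8 passed the filter on dim genes, a mean of 5.805 on the log2 scale.

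Total RNA was measured on 14 Affymetrix arrays in 2 sets, with 1 array for each combination of small interfering RNA (siRNA), medium and time. The Nupr1 set had 8 arrays, with scrambled control siRNA (siCtrl) or siRNA against NUPR1 (siNupr1), unstarved (0 h) or held for 3, 6 and 9 h in Earle's balanced salt solution (EBSS). The NF-kB set had 6 arrays at 9 h, with siCtrl, siRelA or siRelB, each in EBSS and in a mock medium of unstated composition. According to the labels EBSS lacks amino acids, growth factors and glucose, although the usual formula contains glucose. NUPR1 is a small chromatin protein induced by stress. RELA and RELB are NF-kB transcription factor subunits that bind DNA. The study asked which survival genes depend on each of them in cells without nutrients. Every array carried transfected cells, MiaPaCa2 is 1 line, and which of the listed siRNA sequences was used is not given. No label tells if separate cultures were used, so p-values measure only the spread between these arrays. For the 9 h siNupr1 array the title (sip9) and the source field disagree on the siRNA, and the 0 h arrays are titled with culture medium (DMEM) but sourced as EBSS for 0 h. They were used as siNupr1 and as unstarved, and values that rest on them carry that doubt.

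Receptors of this family are cell-surface proteins that cluster when a trimeric ligand binds. Those with a death domain can recruit the adaptor FADD and the protease caspase-8, which starts apoptosis, or the adaptor TRADD, which leads to NF-kB activation and survival. Receptors without a death domain, such as TNFRSF9 and TNFRSF12A, bind TRAF adaptors and pass signals to the canonical and alternative NF-kB pathways. TNFRSF10D is a decoy that binds TRAIL but has a truncated death domain. FAS and TNFRSF9 are known as NF-kB target genes, and TNFRSF10B as a target of the stress factor CHOP (DDIT3).

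The silenced genes were lower where their siRNA was used. NUPR1 differed by -0.87 ± 0.10 with siNupr1, RELA by -2.49 ± 0.13 with siRelA and RELB by -1.32 ± 0.17 with siRelB (log2 difference ± SE from a linear model fitted with limma). RELB also differed by -0.67 ± 0.12 with siNupr1, and NUPR1 by -0.43 ± 0.14 with siRelB (limma adjusted p = 0.0442), the latter a call lost in 8 of 14 fits without 1 array (up to 0.318). Both sets hold an siCtrl array after 9 h of EBSS. Across the tested genes, which are not independent, this pair had r = 0.905 and 9.26% of the genes stood at least 2-fold apart, so comparisons were made within a set. Among epithelial markers KRT8, KRT18 and KRT19 were bright (between 9.54 and 13.3 over the arrays), while EPCAM (3.27 to 3.89) and CDH1 (4.26 to 4.83) lay under the filter. Of the 4 leukocyte markers measured, PTPRC lay between 2.41 and 2.80, CD3E between 4.76 and 5.30 and ITGAM between 4.85 and 5.84, and CD14 (5.197 to 6.238) was the 1 that passed the filter. Of the 5 fibroblast markers, COL1A2 (9.22 to 10.99) and COL1A1 (6.53 to 7.27) passed it, while PDGFRB lay between 5.25 and 5.79 and DCN and LUM between 2.10 and 3.23, and the mean of 4 endothelial markers lay between 4.43 and 5.01. The array number limits the precision, and in these bulk samples fewer cells with a transcript and less of it per cell cannot be told apart.

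The promoters of the 2 receptor genes that changed most with silencing of the NF-kB subunits among those with a promoter in the RefSeq table (GRCh38.p14) are shown because they hold matches to an NF-kB site. Capitals mark matches to the NF-kB site or to the AP-1 site TGANTCA, searched on both strands. TNFRSF9 lies on the minus strand of chromosome 1, and the window chr1:7940790-7941089 runs from before its transcription start into its first bases. FAS lies on the plus strand of chromosome 10 and has 3 windows in the table, of which the windows chr10:88991181-88991480 (A) and chr10:88990548-88990847 (B) hold a match.
TNFRSF9: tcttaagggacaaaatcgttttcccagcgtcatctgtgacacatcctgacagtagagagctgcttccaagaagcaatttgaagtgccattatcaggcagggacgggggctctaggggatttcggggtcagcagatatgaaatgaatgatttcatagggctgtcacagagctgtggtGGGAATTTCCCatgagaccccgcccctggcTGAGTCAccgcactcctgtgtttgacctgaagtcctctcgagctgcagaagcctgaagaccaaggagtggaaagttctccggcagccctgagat
FAS A: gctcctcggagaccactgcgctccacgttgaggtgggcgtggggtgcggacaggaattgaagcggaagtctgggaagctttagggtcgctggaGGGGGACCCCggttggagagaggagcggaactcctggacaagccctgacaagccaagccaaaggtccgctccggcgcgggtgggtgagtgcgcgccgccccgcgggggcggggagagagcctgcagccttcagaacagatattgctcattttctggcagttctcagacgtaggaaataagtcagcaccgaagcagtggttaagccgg
FAS B: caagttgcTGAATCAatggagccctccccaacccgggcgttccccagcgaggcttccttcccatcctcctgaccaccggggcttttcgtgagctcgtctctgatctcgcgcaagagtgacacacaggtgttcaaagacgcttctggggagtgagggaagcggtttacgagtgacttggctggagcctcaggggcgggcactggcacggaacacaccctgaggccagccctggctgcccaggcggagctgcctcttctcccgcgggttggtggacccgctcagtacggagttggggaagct

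The TNFRSF9 window held 2 overlapping NF-kB matches, starting 74 and 73 bases before the start, and an AP-1 match starting 44 bases before it. FAS window A held 1 NF-kB match, starting 157 bases before its start, and FAS window B held 1 AP-1 match, starting 242 bases before its start. Over the 35116 promoter windows of the same length in the table, 11.27% held the NF-kB site and 7.71% the AP-1 site. The letters of the CRE site (TGACGTCA, in 1.85% of windows) and of the ATF4 or CHOP composite site (TGATGNAAN, in 3.61%) were in none of the member windows. The windows of TNFRSF1A, TNFRSF21 and the third FAS start held 0 matches to any of the 4 sites. In all, 4 of the 8 members were in the table, and a match is a run of letters, not a measured binding event.

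TNFRSF9 was the receptor that changed most with silencing, and it was lower with each of the 3 siRNAs. In the Nupr1 set its levels at 0, 3, 6 and 9 h were 6.77, 7.47, 7.52 and 7.82 with siCtrl. With siNupr1 they were 5.69, 6.13, 6.28 and 6.81. Each siNupr1 array lay more than 1 log2 unit below its siCtrl partner, and only the 9 h siNupr1 array overlapped the siCtrl range, just above the unstarved siCtrl level. The difference was -1.17 ± 0.10 (n = 4 pairs, limma adjusted p = 1.31e-06), a 2.25-fold lower level, with pair differences of -1.07, -1.34, -1.25 and -1.01 at 0, 3, 6 and 9 h. Of 11026 genes tested, TNFRSF9 had the lowest difference with siNupr1 (rank 1 from the lowest), and it also ranked 1 in each of 21 alternative fits. The siNupr1 0 h level of 5.69 was under the filter's level of 5.805, a dim signal. The mean of the 5 epithelial markers lay between 8.59 and 8.72 on the siCtrl arrays of this set and between 8.78 and 8.83 on the siNupr1 arrays, with KRT19 higher by 0.61 and KRT18 by 0.12, and their part in the siNupr1 differences was not tested. The leukocyte markers, of a cell type known to carry TNFRSF9, had means of 4.48 to 4.76 with siCtrl and 4.56 to 4.84 with siNupr1, which overlap.

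In the NF-kB set the siCtrl levels of TNFRSF9 were 8.17 in EBSS and 7.93 in mock. With siRelA they were 5.73 and 6.12, and with siRelB 7.17 and 7.03. The siCtrl, siRelB and siRelA arrays therefore formed 3 levels that did not overlap, with siRelA lowest. The siRelA difference was -2.12 ± 0.15 (n = 2 pairs, limma adjusted p = 1.49e-08), a 4.36-fold lower level, and it ranked 2 from the lowest of 11026 genes, behind RELA itself, and between 2 and 9 in 21 alternative fits. The siRelB difference was -0.95 ± 0.15 (n = 2 pairs, limma adjusted p = 1.82e-04), a 1.93-fold lower level, and it ranked 81 from the lowest. TNFRSF9 was higher with siRelB than with siRelA by 1.17 ± 0.15 (limma adjusted p = 4.22e-05). The siRelA and siRelB comparisons share the siCtrl arrays. The siRelA difference was -2.44 in EBSS and -1.80 in mock, and the difference between the media of -0.64 ± 0.27 did not pass the test (limma adjusted p = 0.917). The difference with siNupr1 lies in the other set and was not tested against those with siRelA and siRelB.

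**Figure D1:**
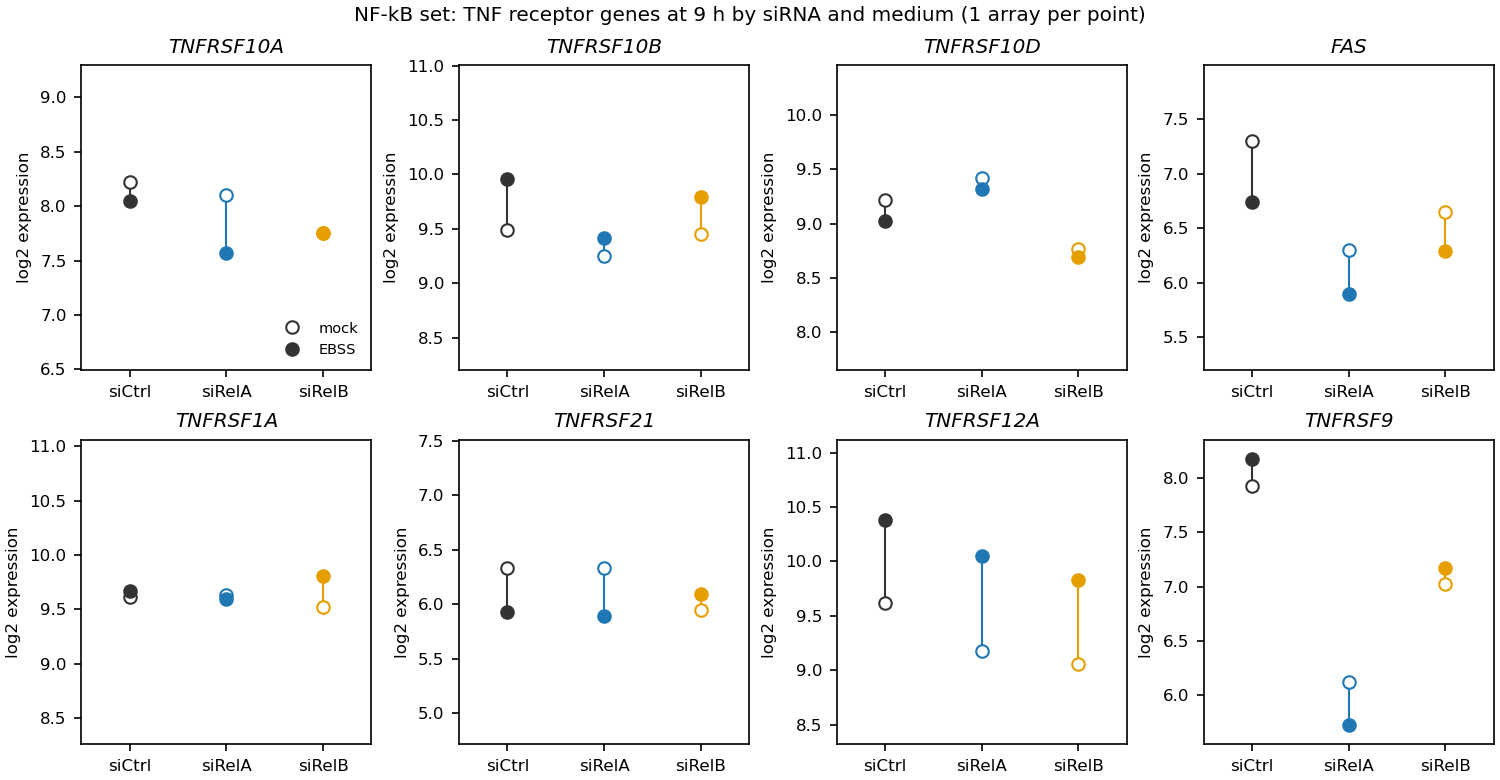
Log2 levels of the 8 receptor genes on the 6 arrays of the NF-kB set (y axis) by siRNA (x axis), with open points for mock and filled points for EBSS, 1 array each and no error bars. TNFRSF9 went from 8.17 and 7.93 with siCtrl to 5.73 and 6.12 with siRelA, while TNFRSF1A stayed between 9.52 and 9.80.

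FAS, the receptor of the death ligand FASL, was lower with siRelA and with siRelB. Its levels in EBSS and mock were 6.74 and 7.30 with siCtrl, 5.90 and 6.30 with siRelA, and 6.29 and 6.65 with siRelB. Within each medium siCtrl was highest and siRelA lowest, and over both media neither silenced group reached the siCtrl range. The siRelA difference was -0.92 ± 0.14 (n = 2 pairs, limma adjusted p = 1.01e-04), a 1.89-fold lower level. The siRelB difference was -0.55 ± 0.14 (n = 2 pairs, limma adjusted p = 0.00912), a 1.47-fold lower level, and this call was lost without the siCtrl mock array (adjusted p = 0.15), the siRelB EBSS array (0.0567) or the siRelB mock array (0.136). FAS was higher with siRelB than with siRelA by 0.37 ± 0.14, with a 95% interval from 0.08 to 0.66, which did not pass (limma adjusted p = 0.0995). With siNupr1 FAS differed by -0.08 ± 0.10 (n = 4 pairs, limma adjusted p = 0.639).

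TNFRSF12A, a receptor that growth factors induce, fell with siRelA and with siRelB, and the TRAIL receptor gene TNFRSF10B fell with siRelA. TNFRSF12A levels in EBSS and mock were 10.38 and 9.62 with siCtrl, 10.05 and 9.18 with siRelA, and 9.83 and 9.06 with siRelB, so both silenced groups lay below siCtrl within each medium and overlapped it across media. It fell by 0.39 ± 0.12 with siRelA (limma adjusted p = 0.0295) and by 0.56 ± 0.12 with siRelB (limma adjusted p = 0.0038). The siRelA call was lost without any 1 of its 4 arrays (adjusted p up to 0.21) and without the variance trend (0.0539), and the siRelB call without the siCtrl mock array (0.0606) or the siRelB EBSS array (0.0626). TNFRSF10B, which encodes the TRAIL receptor DR5, fell by 0.39 ± 0.12 with siRelA (limma adjusted p = 0.0212), a call lost without the siCtrl EBSS array (0.282) or the siRelA EBSS array (0.273). With siRelB the TNFRSF10B difference was -0.10 (limma adjusted p = 0.649).

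The decoy TNFRSF10D and TNFRSF9 were called in the direct comparison of siRelB with siRelA, in opposite directions. TNFRSF10D levels in EBSS and mock were 9.02 and 9.22 with siCtrl, 9.32 and 9.42 with siRelA, and 8.69 and 8.77 with siRelB. The 3 siRNAs gave ranges that did not overlap, with siRelB lowest and siRelA highest. TNFRSF10D differed between siRelB and siRelA by -0.64 ± 0.12 (limma adjusted p = 0.00157), a 1.56-fold lower level with siRelB, and this call was lost without the siRelB mock array (adjusted p = 0.0533). Against siCtrl it fell by 0.39 ± 0.12 with siRelB (limma adjusted p = 0.0293), a call lost without any 1 of its 4 arrays (adjusted p up to 0.253), and differed by 0.25 ± 0.12 with siRelA (adjusted p = 0.154). TNFRSF10A, the TRAIL receptor DR4, differed by -0.30 ± 0.13 with siRelA (limma adjusted p = 0.123) and by -0.38 ± 0.13 with siRelB (0.054), and neither passed. The siRelB difference did pass with quantile normalization, with array weights, with the length trend removed (lowest adjusted p 0.0277) and in 6 of 14 fits without 1 array. Markers moved in the comparison of siRelB with siRelA too, with KRT8 at -0.36, KRT18 at -0.22 and COL1A2 at -0.65. KRT8 was at -0.21 with siRelB and COL1A2 at 0.44 with siRelA, and the part of these markers was not tested.

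Of the 8 receptors, 4 fell and 0 rose with siRelA, where 21.5% of all tested genes were called (10.1% rose and 11.4% fell). With siRelB 4 fell and 0 rose, where 16.1% were called (7.58% rose and 8.55% fell). With siNupr1 1 fell and 0 rose, where 18.4% were called (9.86% rose and 8.58% fell). Between siRelB and siRelA 1 was higher and 1 lower, where 10.1% of all genes were called (5.46% higher and 4.61% lower). The median difference over the 8 was -0.342 with siRelA, -0.386 with siRelB and -0.0945 with siNupr1, beside 0.00916, 0.00345 and 0.00772 over all tested genes. The 8 were chosen with earlier results of these data known, so these counts and medians are a description and no test of the group. TNFRSF1A, the main receptor of TNF, differed by -0.03 with siRelA, 0.02 with siRelB and -0.06 with siNupr1, and over the 14 arrays it kept within 9.52 to 9.86. TNFRSF21, a death-domain receptor known from neurons and lymphocytes, lay between 5.62 and 6.33, near the filter's level, and was called in no comparison listed here.

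**Figure D2:**
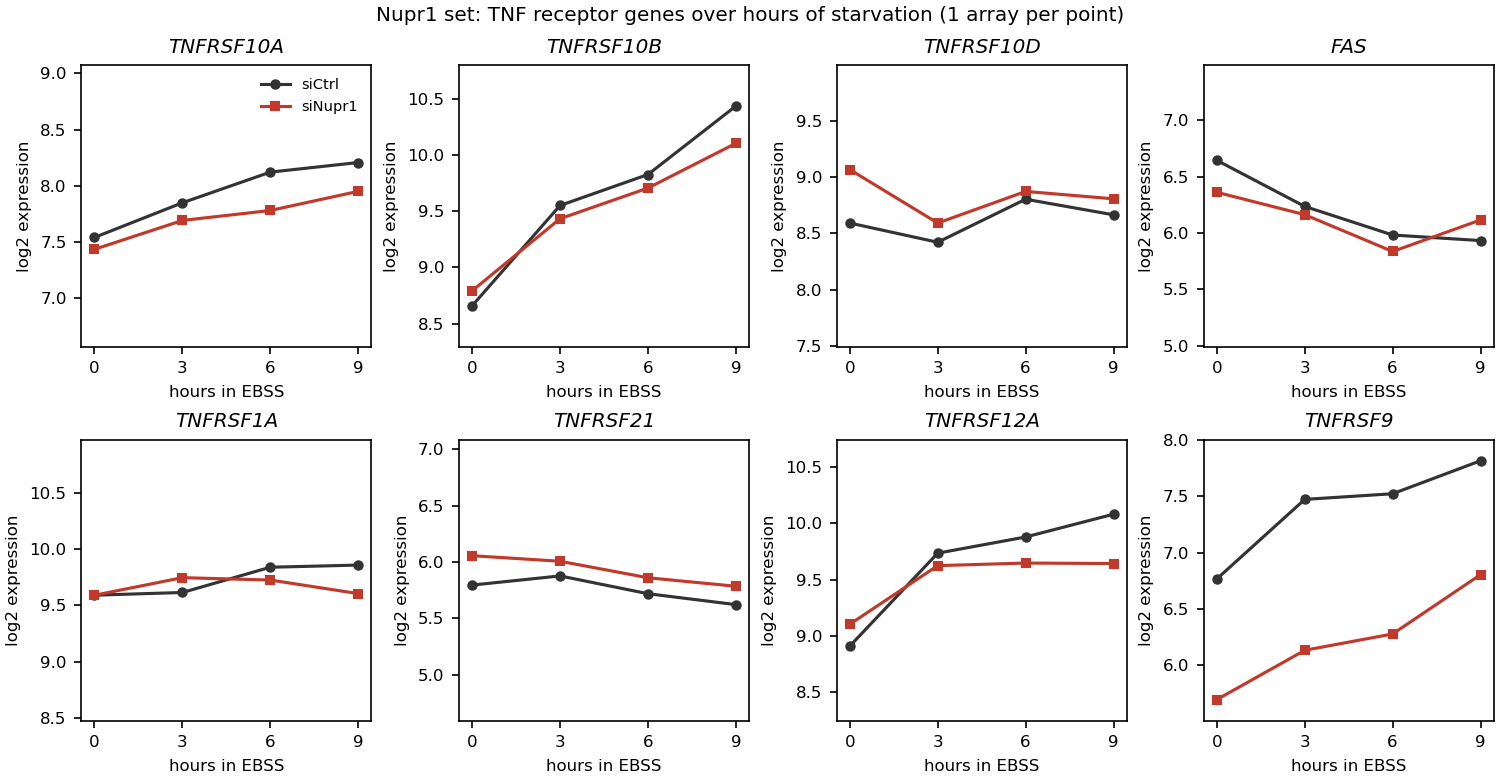
Log2 levels of the 8 receptor genes (y axis) against hours in EBSS (x axis) for the siCtrl and siNupr1 arrays of the Nupr1 set, 1 array per point and no error bars. TNFRSF10B climbed from 8.66 to 10.43 with siCtrl and from 8.79 to 10.10 with siNupr1, and the siNupr1 points of TNFRSF9 lie below the siCtrl points at each time.

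From 0 h to 9 h in EBSS in the Nupr1 set, TNFRSF10B had the largest rise of the 8 receptors. Its siCtrl levels at 0, 3, 6 and 9 h were 8.66, 9.55, 9.82 and 10.43. Its siNupr1 levels were 8.79, 9.43, 9.70 and 10.10. In both series each later array was higher than the one before it, and the starved arrays did not overlap the 0 h arrays. The rise was 0.77 ± 0.12 at 3 h (limma adjusted p = 2.62e-04), 1.04 ± 0.12 at 6 h (5.49e-06) and 1.54 ± 0.12 at 9 h (3.35e-08), with n = 2 pairs at each time. At 9 h this was a 2.91-fold rise that ranked 27 from the highest of 11026 genes. The 9 h level was above the 3 h level by 0.78 ± 0.12 (limma adjusted p = 6.52e-04). The comparisons at 3, 6 and 9 h share the 0 h arrays.

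TNFRSF9, TNFRSF12A and TNFRSF10A rose too. TNFRSF9 was 2.11-fold higher at 9 h than at 0 h, by 1.08 ± 0.15 (limma adjusted p = 2.59e-05), with 1.05 in the siCtrl pair and 1.11 in the siNupr1 pair. Its rise at 3 h of 0.57 ± 0.15 (limma adjusted p = 0.0149) was lost without the siCtrl 0 h array (adjusted p = 0.135), the siCtrl 3 h array (0.22) or the siNupr1 3 h array (0.0606). Its rise at 6 h of 0.67 ± 0.15 (limma adjusted p = 0.00251) was lost without the siCtrl 6 h array (0.061). The rise from 3 h to 9 h, 0.51 ± 0.15 (limma adjusted p = 0.0405), was lost when any 1 of the 6 arrays in EBSS at 3, 6 or 9 h was omitted, as well as with no dim-gene filter, with quantile normalization or with array weights (adjusted p up to 0.378).

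TNFRSF12A levels at 0, 3, 6 and 9 h were 8.91, 9.74, 9.88 and 10.08 with siCtrl and 9.10, 9.62, 9.65 and 9.64 with siNupr1. The siCtrl arrays went on upward while the siNupr1 arrays stayed near their 3 h level. The rise was 0.67 ± 0.12 at 3 h (limma adjusted p = 0.00124), 0.76 ± 0.12 at 6 h and 0.86 ± 0.12 at 9 h (4.48e-05), a 1.81-fold rise at 9 h. At 3 h the call was lost without the siCtrl 0 h array (adjusted p = 0.069). The 9 h rise was 1.17 in the siCtrl pair and 0.54 in the siNupr1 pair, and the siNupr1 difference changed by -0.07 ± 0.02 per hour, which did not pass (limma adjusted p = 0.114). Fitted on the 8 arrays of the set alone that slope passed (adjusted p = 0.022), and the 9 h siNupr1 array is the one with the doubtful title.

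TNFRSF10A levels at 0, 3, 6 and 9 h were 7.54, 7.85, 8.12 and 8.21 with siCtrl and 7.44, 7.69, 7.78 and 7.95 with siNupr1. The starved arrays did not overlap the 0 h arrays, and each siNupr1 array was below its siCtrl partner. The rise was 0.28 ± 0.13 at 3 h (limma adjusted p = 0.178), 0.46 ± 0.13 at 6 h (0.0151) and 0.59 ± 0.13 at 9 h (0.00264). The 6 h call was lost without the siCtrl 0 h array (adjusted p = 0.148) or the siCtrl 6 h array (0.236). The siNupr1 difference of TNFRSF10A was -0.21 ± 0.09 (n = 4 pairs, lower in 4 of 4), which did not pass (limma adjusted p = 0.117). In the other direction, TNFRSF10D and TNFRSF21 were higher with siNupr1 in 4 of 4 pairs. Their differences were 0.21 ± 0.08 (limma adjusted p = 0.0823) and 0.17 ± 0.11 (0.288), and neither passed.

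FAS went the other way. Its levels at 0, 3, 6 and 9 h were 6.65, 6.24, 5.98 and 5.93 with siCtrl and 6.36, 6.16, 5.84 and 6.12 with siNupr1. Every starved array was below both 0 h arrays. FAS fell by 0.59 ± 0.14 at 6 h (limma adjusted p = 0.00382) and by 0.48 ± 0.14 at 9 h (0.0151), and at 3 h the difference of -0.30 ± 0.14 did not pass (0.162). The 6 h call was lost without the siCtrl 0 h array (adjusted p = 0.107), and the 9 h call without the siCtrl 0 h array (0.22) or the siCtrl 9 h array (0.193) and with array weights (0.0709). TNFRSF10D, TNFRSF1A and TNFRSF21 were not called at 3, 6 or 9 h, with 9 h differences of -0.09 ± 0.12, 0.14 ± 0.11 and -0.22 ± 0.15. At 3 h TNFRSF10D differed by -0.32 ± 0.12 (limma adjusted p = 0.0819), which passed with array weights (0.0316) and without the siCtrl 0 h array (0.0484).

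At 3 h 3 of the 8 receptors rose and 0 fell, where 12.3% of all tested genes were called (3.27% upward and 9.07% downward). By 6 h 4 rose and 1 fell, where 23.4% were called (7.65% upward and 15.7% downward), and at 9 h 4 rose and 1 fell, where 24.3% were called (9.19% upward and 15.1% downward). Between 3 h and 9 h 2 rose and 0 fell, where 7.34% were called (4.68% rose and 2.66% fell). The median of the 8 at 9 h was 0.366, beside -0.0379 over all genes. Because the 8 were chosen with earlier results known, these counts and medians too are only a description. Of the markers COL1A2 was called at each time, at -0.73, -0.67 and -0.96 at 3, 6 and 9 h, and its part in the receptor differences was not tested.

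Against mock medium at 9 h in the NF-kB set, TNFRSF12A and TNFRSF10B rose in EBSS and FAS fell. TNFRSF12A was higher in EBSS by 0.80 ± 0.10 (n = 3 pairs, limma adjusted p = 2.02e-06), a 1.74-fold rise, with pair differences of 0.77 with siCtrl, 0.87 with siRelA and 0.77 with siRelB. TNFRSF10B levels in EBSS and mock were 9.96 and 9.49 with siCtrl, 9.41 and 9.25 with siRelA, and 9.79 and 9.46 with siRelB. EBSS was higher in each pair, by 0.32 ± 0.10 (limma adjusted p = 0.00912), and the call was lost without either siCtrl array (adjusted p = 0.0959 and 0.0951). FAS fell by 0.44 ± 0.11 (limma adjusted p = 0.00313). TNFRSF9 differed by 0.00 ± 0.12, with a 95% interval from -0.25 to 0.25 (limma adjusted p = 0.996), with 0.25 in the siCtrl pair, -0.39 in the siRelA pair and 0.15 in the siRelB pair. TNFRSF10A at -0.23 ± 0.11 (limma adjusted p = 0.0767) and TNFRSF21 at -0.24 ± 0.12 (0.113) did not pass. Both passed as falls without either siRelB array (down to -0.35 and -0.43), while TNFRSF21 reached 0.08 among the other alternatives. TNFRSF10D differed by -0.13 and TNFRSF1A by 0.10, and neither was called.

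In this comparison 2 receptors rose and 1 fell, a share below the 51.9% of all tested genes that were called (22.6% rose and 29.3% fell). Differences here also moved with the genomic length of genes, with Spearman's rho of -0.424 across genes (not independent of each other). FAS spans 53.0 kb and TNFRSF12A 2.02 kb, against a median of 24.7 kb. With that trend removed FAS differed by -0.20 (limma adjusted p = 0.164) and TNFRSF10B by 0.55. The TNFRSF12A difference went down to 0.59 among the 7 alternatives other than leaving out an array, and its call was kept in each. Marker means also moved with the medium, with epithelial means of 8.91 to 9.08 in EBSS and 8.71 to 8.83 in mock. The leukocyte means were 4.88 to 4.89 and 4.74 to 4.77, and the endothelial means 4.75 to 5.01 and 4.61 to 4.71. Of single markers KRT19, KRT18 and KRT8 rose by 0.49, 0.33 and 0.14, and COL1A2 fell by 0.91. The part of these markers in the receptor differences was not tested.

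The difference between 9 h and 0 h in the Nupr1 set was larger than that between EBSS and mock in the NF-kB set for 3 receptors, namely TNFRSF10B by 1.22 ± 0.15 (limma adjusted p = 1.06e-05), TNFRSF9 by 1.08 ± 0.19 (3.34e-04) and TNFRSF10A by 0.82 ± 0.17 (0.00143). Over all tested genes 24.5% were called in this contrast, 16.4% upward and 8.11% downward. The controls differ in time as well as in medium, 0 h against 9 h of mock. The siRNAs averaged differ too, siCtrl and siNupr1 in the Nupr1 set and siCtrl, siRelA and siRelB in the NF-kB set. In the siCtrl pair of each set alone, the differences for TNFRSF10B were 1.775 in the Nupr1 set and 0.467 in the NF-kB set. For TNFRSF9 they were 1.05 and 0.25, and for TNFRSF10A 0.67 and -0.17, in the same order. Each is 1 pair of arrays, and the part of the siRNAs was not tested. Set, time and medium cannot be told apart here.

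The siRNA differences were not called as depending on starvation for any of the 8 receptors in the fits of all 14 arrays. For siRelA and siRelB this cannot decide the question. With the medium terms added, the NF-kB set has no residual degrees of freedom, and the spread comes from the Nupr1 set alone. For the slope of the siNupr1 difference on hours, limma called 0 of 11026 genes, with 2149 genes and 2 of the receptors (TNFRSF12A and TNFRSF10B) at an unadjusted p under 0.05. Fitted on the 8 arrays of the Nupr1 set alone, it called 841 genes and 1 receptor, TNFRSF12A. For the siRelA difference in EBSS against mock it called 0 receptors and 4 genes (0.0363%), with 572 genes and 1 receptor, TNFRSF9, at an unadjusted p under 0.05. The interval of that TNFRSF9 difference ran from -1.21 to -0.07. For siRelB it called 0 genes, with 401 at an unadjusted p under 0.05 and 0 receptors among them.

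**Figure D3:**
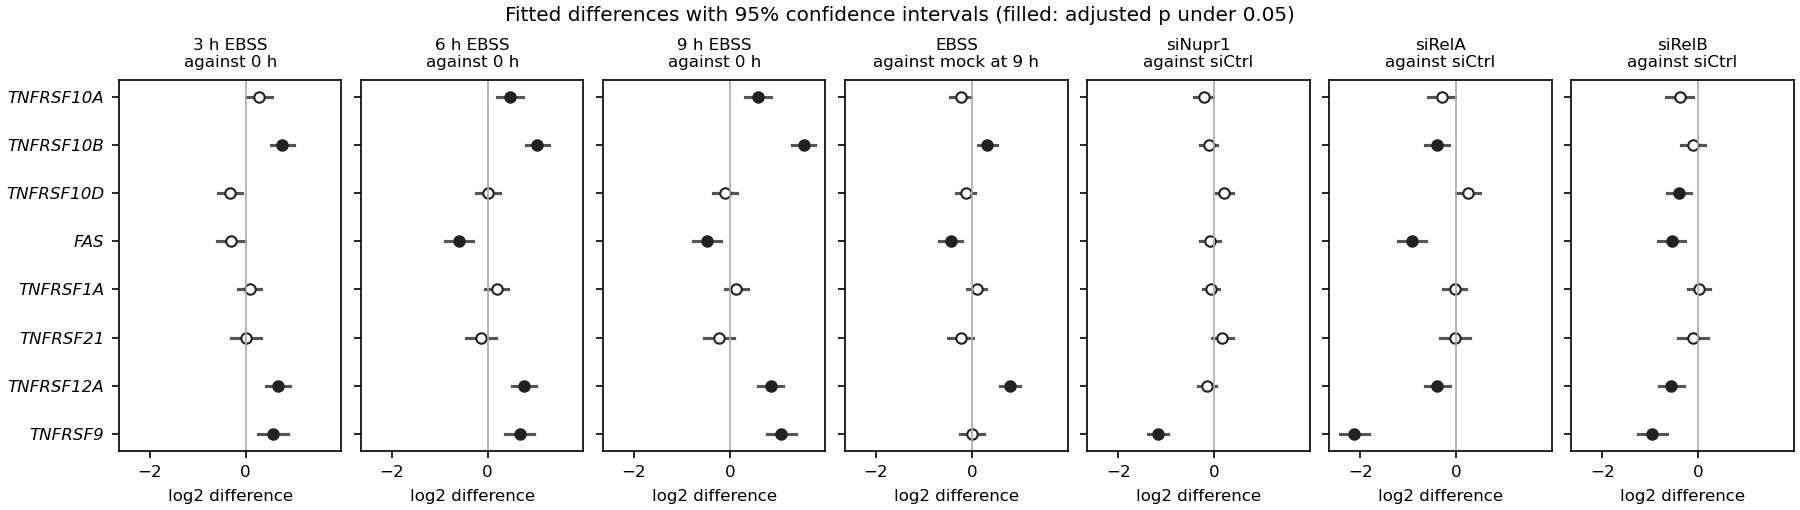
Log2 differences (x axis) of the 8 receptor genes in 7 comparisons, with bars for 95% confidence intervals from the limma fit and filled points for an adjusted p under 0.05. TNFRSF9 is the 1 receptor whose interval lies below 0 and is called with each of the 3 siRNAs, at -1.17, -2.12 and -0.95.

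The rest of the family and its ligands were followed in lists. Of 21 other receptors of the family, 11 were tested. In EBSS against mock 5 rose and 0 fell, where 51.9% of all tested genes were called (22.6% rose and 29.3% fell). Among the 5 was LTBR, the lymphotoxin beta receptor, by 0.43. Of the 5, TNFRSF4 and NGFR lost their call without any 1 of the siRelA and siRelB arrays (adjusted p up to 0.11 and 0.141), and TNFRSF25 and TNFRSF4 with the length trend removed (0.0852 and 0.246). At 9 h against 0 h 0 rose and 2 fell, NGFR (the p75 neurotrophin receptor, -0.53) and TNFRSF1B (the other TNF receptor, -0.49), and leaving out the siNupr1 0 h array ended both calls (adjusted p of 0.139 and 0.0626). The NGFR call was also lost without the siNupr1 9 h array, whose title is in doubt. Over all tested genes 24.3% were called at 9 h against 0 h (9.19% rose and 15.1% fell). With siNupr1 2 rose and 0 fell, NGFR by 0.56 ± 0.10 (n = 4 pairs, limma adjusted p = 6.66e-04) and TNFRSF1B by 0.25, and with siRelA 2 rose, LTBR by 0.65 ± 0.12 (limma adjusted p = 6.17e-04) and TNFRSF1B by 0.51. The TNFRSF1B call with siNupr1 was lost in 13 of 14 fits without 1 array (adjusted p up to 0.163), and that with siRelA without either mock array of its pair (up to 0.104). With siRelB 0 of 11 were called. Over all tested genes 18.4% were called with siNupr1, 21.5% with siRelA and 16.1% with siRelB. The median of the 11 was 0.297 in EBSS against mock, beside 0.0503 over all genes, and between -0.0576 and 0.0532 with the 3 siRNAs.

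Of 18 TNF family ligands only LTB, TNFSF9 and TNFSF14 were tested. TNFSF9, the ligand of TNFRSF9, lay between 6.72 and 7.23 over the 14 arrays and was not called. LTB, a lymphotoxin subunit, rose by 0.35 ± 0.11 in EBSS against mock (limma adjusted p = 0.0101), a call lost without either siRelA array (adjusted p up to 0.066) or with the length trend removed (0.288). No ligand was called with an siRNA or at 3, 6 or 9 h. TNFSF10, which encodes TRAIL (2.75 to 3.96), FASLG (4.16 to 4.68) and TNF (4.68 to 5.59) lay under the filter on each of the 14 arrays.

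Among 16 tested adaptors and signalling genes, BIRC2, which encodes the ubiquitin ligase cIAP1 of TNF receptor complexes, fell with each siRNA. The difference was -0.61 ± 0.09 with siNupr1 (limma adjusted p = 1.86e-04), -0.92 ± 0.13 with siRelA (5.16e-05) and -1.40 ± 0.13 with siRelB (8.44e-07). CFLAR, the caspase-8 inhibitor FLIP, differed by -0.49, -0.42 and -0.45 in the same order and was called in each, but with siRelA and siRelB the call was lost without any 1 of their 4 arrays (adjusted p up to 0.167 and 0.162), and with siRelB also with the mean over its clusters (0.264). With siNupr1 1 of the 16 rose (CASP8, the initiator caspase) and 4 fell, the others being MAP3K14, the kinase NIK of the alternative NF-kB pathway (-0.65), and CYLD, a deubiquitinase (-0.44). With siRelA 2 rose and 2 fell, and with siRelB 1 rose and 4 fell, TRADD being the one that rose, by 0.57. Over all tested genes 9.86% rose and 8.58% fell with siNupr1, 10.1% and 11.4% with siRelA, and 7.58% and 8.55% with siRelB. The TRADD call was lost without either siCtrl array or the siRelB mock array (adjusted p up to 0.137). The list medians were 0.0469, 0.0262 and 0.136.

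**Figure D4:**
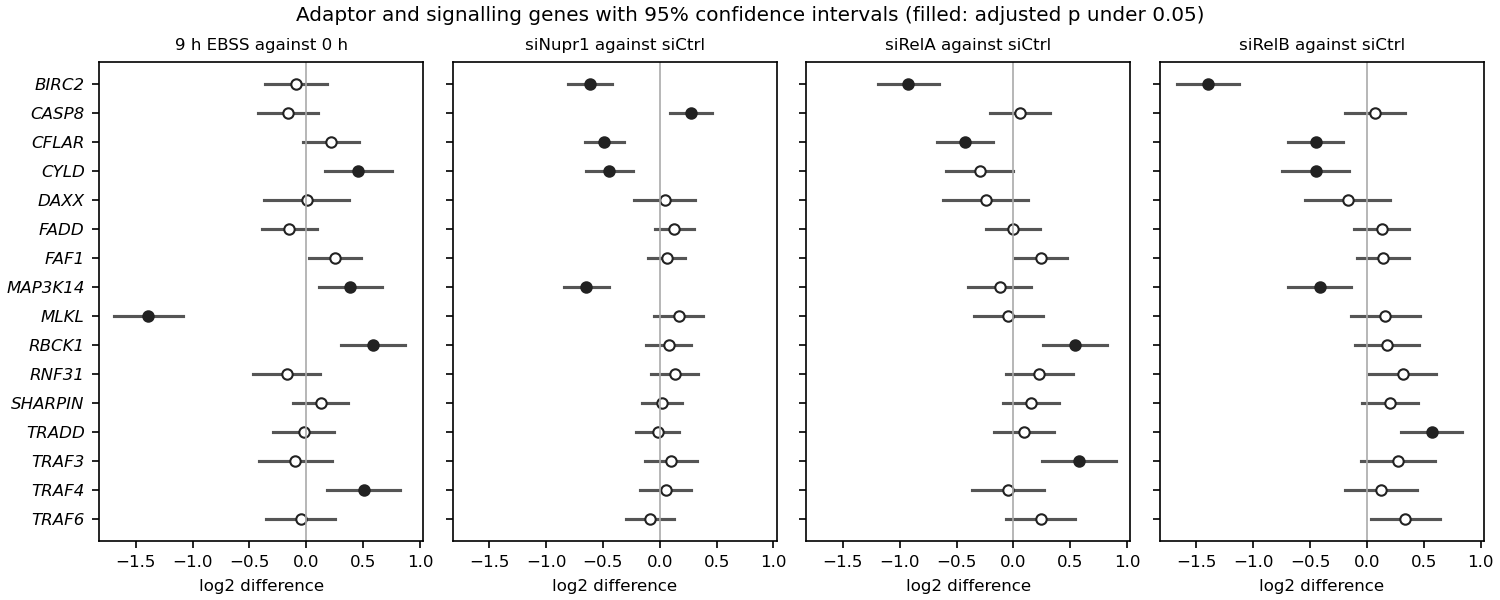
Log2 differences (x axis) of the 16 tested adaptor and signalling genes at 9 h in EBSS against 0 h and with the 3 siRNAs, with bars for 95% confidence intervals from the limma fit and filled points for an adjusted p under 0.05. BIRC2 and CFLAR are called below 0 with each siRNA, and MLKL has the lowest difference at 9 h, -1.39.

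In starvation 4 of the 16 rose and 1 fell at 9 h against 0 h, where 24.3% of all tested genes were called (9.19% rose and 15.1% fell). MLKL, the pore-forming effector of necroptosis, fell by 1.24 ± 0.14 at 6 h and by 1.39 ± 0.14 at 9 h (n = 2 pairs, limma adjusted p = 1.07e-06), and its difference in EBSS against mock was -0.88. RBCK1, a subunit of the linear ubiquitin ligase, rose by 0.59 at 9 h and TRAF4 by 0.50. Both calls were lost without the siCtrl 9 h array, and that of TRAF4 also without the siCtrl 0 h array (adjusted p up to 0.09 and 0.349) and with array weights (0.0782). Of 8 tested genes of downstream execution, 3 rose and 3 fell in EBSS against mock, where 51.9% of all tested genes were called, with XIAP, a caspase inhibitor, at -1.004 and BAK1, a mitochondrial pore protein, at 0.60. At 9 h against 0 h 1 rose, XIAP by 0.59, a call lost without either siNupr1 array of its pair (adjusted p up to 0.526, difference down to 0.21) and with array weights (0.094). The contrast of both starvation comparisons for XIAP was 1.59 ± 0.24 (limma adjusted p = 6.3e-05).

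Of 9 tested transcription factors known at death receptor genes, 6 rose and 0 fell at 9 h against 0 h, and 7 rose and 0 fell in EBSS against mock. Over all tested genes 9.19% rose and 15.1% fell in the first comparison, and 22.6% rose and 29.3% fell in the second. ATF3, a stress-induced factor counted in both, lost its call without either siCtrl array of each comparison (adjusted p up to 0.116 at 9 h and 0.906 against mock, where its lowest difference was 0.02). It was also lost with array weights at 9 h (0.0505), and against mock with no filter, with quantile normalization and with only the arrays of the set (up to 0.0678). DDIT3, the stress factor CHOP, rose by 2.68 ± 0.19 at 3 h, 2.78 ± 0.19 at 9 h and 1.85 ± 0.16 in EBSS against mock. With siNupr1 and siRelB 0 of the 9 were called, and with siRelA RELA and DDIT3 (-0.58) fell, the DDIT3 call being lost without the siCtrl EBSS or the siRelA EBSS array (adjusted p up to 0.827, difference down to -0.10). That call was also lost without the filter on dim genes, without the variance trend, with quantile normalization and with array weights (up to 0.0681).

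The genes with the most similar pattern to each receptor were taken by Pearson's r over the 14 arrays after centring each set, a description over arrays that share treatments. Those of TNFRSF10B were ASNS (0.964), XBP1 (0.961) and CARS1 (0.958), which encode asparagine synthetase, a factor of the unfolded protein response and a cysteinyl-tRNA synthetase. Those of TNFRSF12A were JUNB (0.960), PLK3 (0.960) and PXDC1 (0.958). Those of TNFRSF9 were KBTBD2 (0.951), CNDP2 (0.929) and ALDH1A3 (0.903), those of FAS PSMC6 (0.945), PRIMPOL (0.944) and SRP9 (0.936), and those of TNFRSF10A SIRT1 (0.913), SLC38A1 (0.901) and SLC38A2 (0.889). For TNFRSF10D they were AKAP8, MTHFD1 and KHSRP (0.920 to 0.865), for TNFRSF1A TLCD2, BEAN1 and LAG3 (0.897 to 0.843), and for TNFRSF21 KDM1A, NUP43 and CAMK1D (0.842 to 0.814). Among the receptors themselves the highest values were 0.769 between TNFRSF10B and TNFRSF12A and 0.699 between TNFRSF10A and TNFRSF9.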

How the data were processed

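The authors deposited log2 values of 28869 transcript clusters on 14 arrays, with RMA and limma named in the submitters' processing notes without versions; the annotation and build behind them are not stated. RMA equalizes arrays, so shifts shared by most genes are removed. Clusters with 1 annotated symbol (19310) gave 18377 genes, by Entrez identifier; the brightest cluster stood for a gene. The dimmest 40% of genes were left out and 11026 tested.

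In R 4.3.3 with limma 3.58.1, 1 linear model of set, siRNA and condition (9 columns, 5 residual degrees of freedom) was fitted with lmFit and eBayes with an intensity trend, and calls used adjusted p under 0.05 (Benjamini-Hochberg, over the tested genes). Residuals also hold interactions of siRNA and condition, as each combination is 1 array. Slope and medium interactions were added in turn. With the medium interactions 3 residual degrees of freedom remain, all from the Nupr1 set. The script was tested on simulated data. Of simulated 1.5-fold changes it recovered 47.8% at 3 h, 51% with siRelA, 52.6% with siRelB and 86.7% with siNupr1. Of simulated 2-fold changes it recovered between 88% (6 h) and 100% (siNupr1). A change of 1.5-fold or less that was not called can therefore have been missed. Named genes are the 8 receptors, the silenced genes, up to 4 called genes per list with the largest change, and the 3 genes most like each receptor, besides the marker genes, TNFSF9, TNFSF10, FASLG and TNF. The members and lists were chosen with earlier results of these data known. TNFRSF10C, TNFRSF6B, RIPK1, TRAF2 and BIRC3 were not analysed here. The TRAIL receptor genes are similar copies, and signal shared between their probes was not tested. Motifs were searched in RefSeq promoter windows (250 bases before to 50 after a start).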

Additional observations from a re-analysis of the deposited data

Results flagged for a closer look

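For 3 receptors the change with starvation differed between the sets, by a test of the difference itself in the limma fit (9 h against 0 h in the Nupr1 set, minus EBSS against mock in the NF-kB set). TNFRSF10B rose by 1.54 in the first and by 0.32 in the second, a difference of 1.22 ± 0.15 (adjusted p = 1.06e-05). TNFRSF9 rose by 1.08 in the first and differed by 0.00 in the second, a difference of 1.08 ± 0.19 (adjusted p = 3.34e-04). TNFRSF10A rose by 0.59 in the first and differed by -0.23 in the second, a difference of 0.82 ± 0.17 (adjusted p = 0.00143). The TNFRSF9 value of 0.00 averages pairs of 0.25 with siCtrl, -0.39 with siRelA and 0.15 with siRelB. These 3 calls of a difference between the sets held in each alternative that was run. The sets also differ in the time and medium of the control, which cannot be told apart from the set. They differ in the siRNAs averaged too, whose part was not tested. The siCtrl pairs alone, 1 in each set, differed in the same direction for each of the 3 receptors.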

How the results depend on the processing

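The alternatives were no filter on dim genes, quantile normalization, no variance trend, array weights, only the arrays of the set, the mean over a gene's clusters, removal of the trend with gene length, and leaving out each array in turn. Of 32 called receptor results, 17 kept their call and direction in every alternative run for them, and 0 reversed over 669 refitted values of called results and 1395 of others. Receptors called between 3 h and 9 h numbered 1 instead of 2 without the filter, with quantile normalization and with array weights, and the siNupr1 slope on hours called 1 instead of 0 with only the arrays of the set. Leaving out each array in turn, the receptors called numbered 2 to 5 for EBSS against mock, 2 to 3 at 3 h, 3 to 5 at 6 h, 4 to 5 at 9 h, 1 to 2 between 3 h and 9 h, 1 to 1 for siNupr1, 2 to 4 for siRelA, 1 to 5 for siRelB and 1 to 2 between siRelB and siRelA. The cause was not tested beyond the smaller number of arrays. With quantile normalization the share of all calls that rose went from 43.5% to 56.3% in EBSS against mock, from 26.5% to 44.7% at 3 h, from 32.7% to 45.7% at 6 h and from 63.8% to 51.8% between 3 h and 9 h. In the contrast of the sets it went from 66.9% to 56.3% with the length trend removed. Over all genes, array weights moved the calls from 1361 to 2173 at 3 h, from 2675 to 1517 at 9 h, from 809 to 414 between 3 h and 9 h, from 2033 to 3271 with siNupr1, and from 4 to 39 and from 0 to 6 for the siRelA and siRelB differences between media. The siNupr1 slope called 841 genes instead of 0 with only the arrays of the set, and the siRelA difference between media 0 instead of 4 without the variance trend and 2 with the length trend removed. A lone array left in an arm is assumed to vary like the others. No paired analysis was possible because the labels give no replicate numbers and each combination has 1 array; pairs by siRNA, medium or time are in the model. TNFRSF9 under 5.805, TNFRSF21 near it and FAS at its lowest levels (down to 5.84) are dim, which limits their differences.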
